A study of Mus musculus with 222 samples.

Results

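Imprinted genes are expressed mainly from a single parental copy, and 47 of them, out of 24391 genes in the count tables, were followed in mouse primordial germ cells (PGCs) that had lost Eed. Members were taken from a list of established mouse imprinted genes, with no rule on their level but with earlier results of these data known. They were sorted by cluster and by the parental origin of the expressed allele: 27 are expressed from the paternal allele, 19 from the maternal allele, and Gnas gives transcripts from both. All embryos had the mixed background C57BL/6;129S1/SvlmJ and came from mothers carrying OG, an Oct4-GFP reporter, and a homozygous floxed Eed allele, mated to fathers heterozygous for that allele and carrying BC, the Blimp1-Cre driver. The offspring labelled wild type are called Control and those labelled Eed -/- are called ECKO. Because of the cross, Control embryos also had a mother homozygous for the floxed allele, and the labels do not say which Control embryos carried Cre. Blimp1-Cre acts from the founding of the germ line and is also active in other embryonic cells, and the sort on GFP does not select for recombined cells. Bulk RNA came from GFP-positive cells of gonads at E11.5 (XY, 4 Control and 4 ECKO libraries, and XX, 3 Control and 4 ECKO libraries) and at E13.5 (XY, 4 Control and 3 ECKO libraries). At E12.5, 192 single cells were sequenced, 24 from each of 2 embryos per genotype and sex. The counts do not separate the parental alleles, so the share of either allele was not measured.

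An imprint is laid down in the parental gametes, in most clusters as DNA methylation of a control region on the egg's or the sperm's copy. It is read in the embryo as silence of a gene on 1 copy and activity on the other. PGCs erase these methylation marks while they enter and settle in the gonad, and new ones are set later according to the sex of the germ line. EED is the core subunit of Polycomb repressive complex 2 (PRC2) that binds trimethylated lysine 27 of histone H3 (H3K27me3) and lets the enzyme spread the mark. H3K27me3 itself, inherited from the egg, is the imprint of a small set of genes that includes Sfmbt2, Slc38a4 and Gab1, whose imprinting is best known from the placenta, and PRC2 is also recruited in the placenta by long noncoding RNAs of imprinted clusters such as Kcnq1ot1. Many imprinted genes are growth regulators that mesenchymal cells of the embryo express strongly.

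Eed was lower in every ECKO library than in every Control library of the same sex and stage, with values in CPM (a gene's reads relative to its library's total, scaled by the trimmed mean of M values within each table) of 80.9 to 144 against 16.5 to 49.5 at E11.5 XY and 57.3 to 119 against 2.97 to 12.6 at E13.5 XY. The labels number the bulk libraries without saying which embryos each came from, so the p-values measure the spread between these libraries. Total counts ran from 415291 to 14974853 per bulk library, with the E11.5 XX libraries the shallowest, and from 14162553 to 28753681 per E12.5 embryo. The summed level of 12 germ cell markers was 2017 to 4972 CPM in the bulk libraries. All marker sums are CPM over total counts, without the scaling used for single genes. The 2 libraries labelled ECKO 4 at E11.5 (1 XY and 1 XX) stood apart: 15 interstitial and mesenchymal markers summed to 718 CPM in XY ECKO 4 and 1594 CPM in XX ECKO 4, against 52.4 to 223 CPM in the other 13 E11.5 libraries, with 1 of the 15 markers at 0 in each of the 2 libraries and 1 to 8 at 0 in the others. Values without them are given for the members and counts that moved most, and the part of the markers in those results was not tested.

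Promoters are printed for 4 members, taken in order of the number of comparisons that called them and then of smallest adjusted p. Capitals mark every CpG, the dinucleotide that carries DNA methylation. The RefSeq table (build GRCm38.p6, 250 bases before to 50 bases after each start site, 5′ to 3′ on the gene's strand) held 60 promoters of 40 members and none for H19, Kcnq1, Peg10, Sgce, Klf14, Impact and Peg13. Since Peg10 and H19, which come before Sfmbt2 in that order, have no entry, the promoters shown are those of Peg3, chr7:6730370-6730669 on the minus strand, Phlda2, chr7:143502475-143502774 on the minus strand, Rian, chr12:109603695-109603994 on the plus strand, and Sfmbt2, whose start sites gave chr2:10370201-10370500 and chr2:10372186-10372485, both on the plus strand.
Peg3: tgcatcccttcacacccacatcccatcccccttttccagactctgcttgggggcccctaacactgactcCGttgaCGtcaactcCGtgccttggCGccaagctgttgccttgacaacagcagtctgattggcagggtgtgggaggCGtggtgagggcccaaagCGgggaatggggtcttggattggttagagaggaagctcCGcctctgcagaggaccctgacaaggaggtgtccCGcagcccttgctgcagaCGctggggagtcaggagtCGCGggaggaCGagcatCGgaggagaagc
Phlda2: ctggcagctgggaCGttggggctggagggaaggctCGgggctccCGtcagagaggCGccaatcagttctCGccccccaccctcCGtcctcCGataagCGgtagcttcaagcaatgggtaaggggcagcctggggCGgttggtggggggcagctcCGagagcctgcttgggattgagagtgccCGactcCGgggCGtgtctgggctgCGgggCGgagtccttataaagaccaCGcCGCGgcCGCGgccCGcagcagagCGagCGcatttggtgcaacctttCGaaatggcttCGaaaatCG
Rian: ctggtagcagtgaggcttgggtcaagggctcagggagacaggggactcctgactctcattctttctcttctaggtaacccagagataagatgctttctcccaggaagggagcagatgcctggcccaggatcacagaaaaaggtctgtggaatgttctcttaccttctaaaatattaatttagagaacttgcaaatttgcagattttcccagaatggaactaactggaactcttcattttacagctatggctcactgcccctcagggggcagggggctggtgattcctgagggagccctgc
Sfmbt2 start 1: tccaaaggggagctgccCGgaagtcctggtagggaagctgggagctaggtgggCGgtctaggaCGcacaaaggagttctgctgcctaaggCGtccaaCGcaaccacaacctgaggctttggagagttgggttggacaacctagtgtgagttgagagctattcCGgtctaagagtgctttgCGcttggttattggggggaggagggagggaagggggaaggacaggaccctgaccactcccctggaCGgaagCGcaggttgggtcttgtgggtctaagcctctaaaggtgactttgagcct
Sfmbt2 start 2: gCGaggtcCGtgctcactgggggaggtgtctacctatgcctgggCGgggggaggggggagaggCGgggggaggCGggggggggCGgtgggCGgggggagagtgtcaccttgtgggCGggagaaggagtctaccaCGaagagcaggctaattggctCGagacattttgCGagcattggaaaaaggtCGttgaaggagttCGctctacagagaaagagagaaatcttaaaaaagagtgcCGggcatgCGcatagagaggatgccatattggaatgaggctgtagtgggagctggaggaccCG
The Phlda2 window held 26 CpGs, the Peg3 window 13, the Sfmbt2 windows 9 and 16, and the Rian window 0. Rian is a stretch of a long transcript that also holds Meg3 and Mirg, and the window printed for it lies inside the cluster. The median over the members' 60 promoters was 14.5 CpGs, against 7 over all 32851 promoters of the table, and 45 of the 60 lay above that median. The hexamer TGCCGC (or GCGGCA on the other strand), bound when methylated by ZFP57, the zinc finger protein that protects imprints, occurred in 13 of 60 windows (21.7%) and in 11.6% of all promoters. GGGGCCCC, the palindrome bound by PLAGL1, occurred in 4 of 60 (6.67%) and in 1.08% of all. Of those matches, 1 starts at base 50 of the Peg3 window, and the Usp29 window, which overlaps it by 263 bases on the other strand, holds the same site. That site is thus counted in both windows. Overlapping windows of 1 gene, as for Mest, likewise count a shared match in each window. A match is a description of the letters and says nothing about binding in these cells.

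Across the 47 members the balance leaned to higher values in ECKO at E11.5 and E12.5, with few genes passing the test, and was even at E13.5. In all 5 comparisons of ECKO with Control, leaving out 1 ECKO library or embryo moved this balance. A gene was tested where edgeR's filter on low counts kept it, and called where its edgeR quasi-likelihood p, adjusted by Benjamini-Hochberg over all genes tested, was under 0.05. At E11.5 XY 39 members were tested, 30 were higher and 9 lower, the median log2 fold change was 0.40 against 0.00 over all genes, and 3 were called, all higher, where 1.51% of all genes were called higher and 0.616% lower. In bulk libraries fewer cells of a type and less RNA per cell cannot be told apart. At E11.5 XX 32 of 38 were higher with a median of 0.83 (all genes 0.03), and 0 were called by edgeR, whose background was 0.172%, while 14 had an unadjusted p under 0.05 (13.9% of all genes). At E13.5 XY 17 of 34 were higher and 17 lower, with a median of 0.05 (all genes 0.05). Without ECKO 1 the same 34 members had 20 higher and a median of 0.54. With all libraries 3 were called higher (background 2.99%) and 1 lower (background 1.9%). At E12.5 26 of 40 tested were higher in XX (median 1.02, all genes 0.13) and 30 of 40 in XY (median 0.84, all genes 0.10). The XX lean rested on 1 embryo: the same 40 members had 22 higher and a median of 0.07 without ECKO embryo B, and 27 higher and a median of 1.63 without embryo A. In XY 24 of the 40 were higher without ECKO embryo A (median 0.95) and 28 without embryo B (median 0.71). None was called by edgeR in either sex, where backgrounds were 0.0215% in XX and 0.00717% in XY, and 12 in each had an unadjusted p under 0.05 (12.3% and 6.31% of all genes). DESeq2, run as an alternative, called 7 members at E11.5 XY (background 6.07%), 3 at E11.5 XX (2.85%), 8 at E13.5 XY (13.7%), 8 at E12.5 XX (6.57%) and 7 at E12.5 XY (2.34%). Members that passed the filter only through the group where they were high had to differ, so these counts and medians describe the members tested and are no test of imprinted genes as a class. Kcnq1, Tspan32, Airn, Klf14, Snrpn and Rasgrf1 were tested in none of the 5 comparisons of ECKO with Control.

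**Figure D1:**
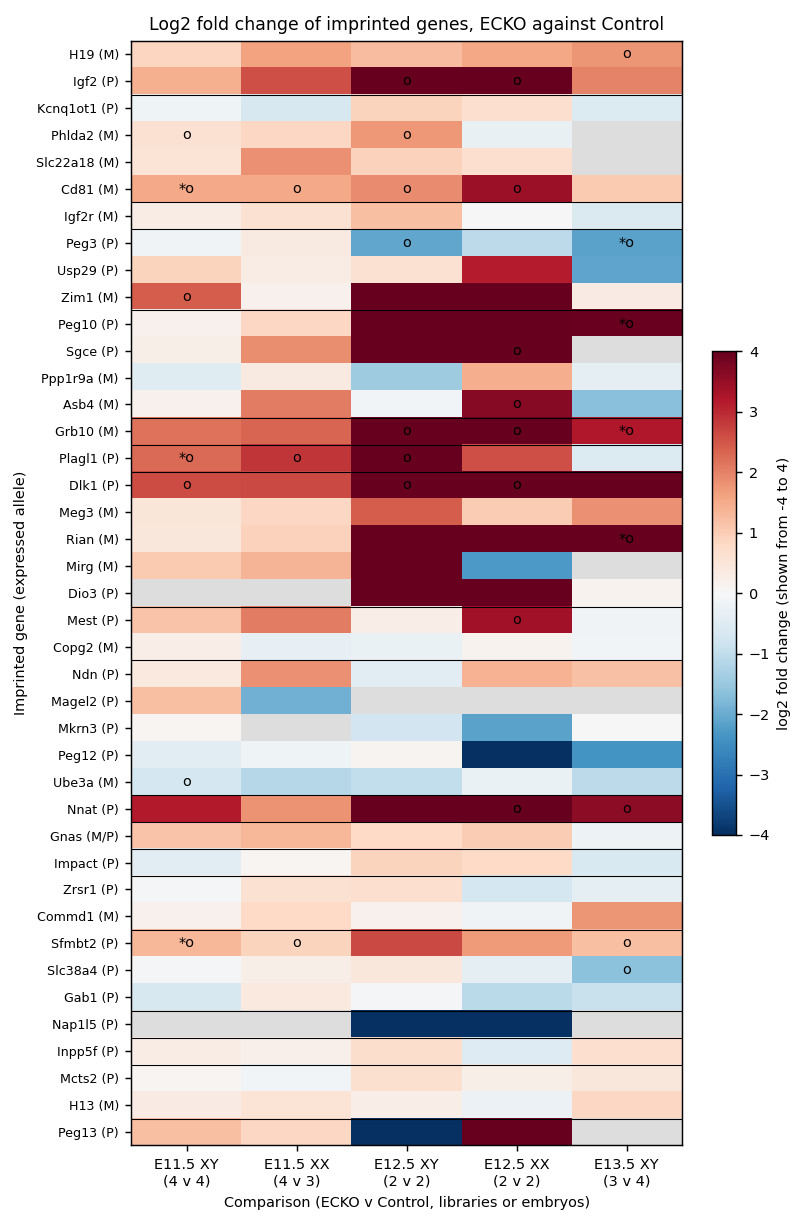
Fitted log2 fold change of the 41 members tested in any comparison (rows, grouped by cluster, with M or P for the expressed allele) in the 5 comparisons of ECKO with Control (columns). Colour runs from −4 to 4, a star marks an edgeR call, a circle a DESeq2 adjusted p under 0.05, and grey a gene not tested; values of genes at 0 in a group depend on the prior count. Stars are confined to Sfmbt2, Cd81 and Plagl1 at E11.5 XY and to Peg10, Rian, Grb10 and Peg3 at E13.5 XY.

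At E11.5 both the maternally and the paternally expressed members leaned to higher values in ECKO. Of the maternally expressed members 14 of 16 were higher in ECKO at E11.5 XY (median 0.46) and 14 of 16 at E11.5 XX (median 0.83). Among the paternally expressed ones 15 of 22 (median 0.26) and 17 of 21 (median 0.60) were higher. Without the ECKO 4 libraries 11 of 16 and 9 of 15 maternally expressed members were higher, with medians of 0.25 each. Of the paternally expressed ones 12 of 22 and 13 of 20 then were, with medians of 0.05 and 0.13. At E13.5 the medians were 0.84 for 13 maternally expressed genes and −0.09 for 20 paternally expressed genes. They were 0.87 and 0.28 without ECKO 1, and 1.28 and −0.21 without Control 4. At E12.5 the maternal and paternal medians were 0.85 and 1.40 in XX and 1.22 and 0.69 in XY. In XX without ECKO embryo B they were 0.09 and 0.05. In XY they were 1.37 and 0.18 without ECKO embryo A but 0.53 and 1.06 without embryo B, so the order of the classes turned. A difference between the classes was not tested. Sorting by the allele that carries germline methylation set the 8 members of the clusters methylated in sperm (H19, Igf2, Dlk1, Meg3, Rian, Mirg, Dio3 and Rasgrf1) beside the rest: all 6 tested were higher in each of the 3 bulk comparisons, with medians of 0.94, 1.49 and 1.91. At E11.5 this rested on ECKO 4, without which 3 of 6 were higher in XY (median 0.07) and 3 of 5 in XX (median 0.25). At E13.5 all 6 were higher without ECKO 1 (median 2.07), and all 4 still tested without Control 4. For genes under control regions methylated in the egg, the medians were 0.29 over 30 genes, 0.61 over 29 and −0.15 over 25. The H19-Igf2 and Dlk1-Dio3 genes are neighbours that share control regions and are not independent of each other.

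Sfmbt2, a Polycomb-group protein with malignant brain tumour repeats whose paternal copy is active in the placenta, was the member with the steadiest rise. In E11.5 XY cells it stood at 179, 103, 123 and 184 CPM in Control and 316, 476, 338 and 333 CPM in ECKO. Every ECKO library lay above every Control library, and ECKO 2 was the highest of all. The means were 147 ± 40.2 CPM (SD, n = 4) in Control and 366 ± 74.2 CPM (SD, n = 4) in ECKO, and the fitted log2 difference was 1.31 ± 0.20 (SE, edgeR adjusted p = 0.00353). It was called when any 1 library of this comparison was left out, with log2 fold changes of 1.16 to 1.44 and adjusted p values of at most 0.0173. The E11.5 XX libraries gave 182, 229 and 231 CPM in Control and 359, 494, 489 and 264 CPM in ECKO. These groups too did not overlap, and the log2 fold change was 0.89 ± 0.24 (SE, edgeR adjusted p = 0.137), which did not pass the test. Without XX ECKO 4 it was 1.05 (edgeR adjusted p = 0.0455), past the threshold, and without XY ECKO 4 the XY value was 1.36 (edgeR adjusted p = 0.00375). At E13.5 XY the values were 118, 85.7, 239.8 and 66.1 CPM in Control and 290.2, 286 and 301.2 CPM in ECKO, again with no overlap, at 1.20 ± 0.41 (SE, edgeR adjusted p = 0.108). E12.5 embryos, with Control values first here and wherever values are joined by "against", had 2.73 and 12.52 against 52.9 and 41.9 CPM in XY, with all ECKO values higher, and 12.8 and 11.1 against 12.3 and 65.2 CPM in XX, where 1 ECKO embryo lay among the Controls.

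No other member of the H3K27me3 group was called in a comparison of ECKO with Control. Slc38a4, an amino acid transporter, was at 119, 146, 133 and 134 CPM in Control and 139.9, 98.1, 143 and 134 CPM in ECKO in E11.5 XY cells. The groups were superposed, and the log2 fold change was −0.05 ± 0.17 (SE, edgeR adjusted p = 0.925). At E13.5 XY it stood at 59.4, 35.6, 141 and 48.2 CPM in Control and 34.1, 18.9 and 15.3 CPM in ECKO, with every ECKO library below every Control library and a log2 fold change of −1.64 ± 0.55 (SE, edgeR adjusted p = 0.101). DESeq2 called that difference and edgeR did not. Gab1, a docking protein of growth factor receptors, had 47.3, 76.9, 61.2 and 65.5 CPM in Control and 40.8, 47.3, 42.7 and 29.8 CPM in ECKO at E11.5 XY, groups that overlapped narrowly at 47.3 CPM, and a log2 fold change of −0.64 ± 0.24 (SE, edgeR adjusted p = 0.183). At E13.5 XY its values were 119, 75.6, 88.8 and 125 CPM in Control and 66.7, 48.8 and 48.4 CPM in ECKO, lower in all ECKO libraries, at −0.90 ± 0.35 (SE, edgeR adjusted p = 0.150). In E11.5 XX cells Slc38a4 read 125, 45.4 and 109.8 against 71.1, 96.2, 112 and 152 CPM and Gab1 read 72.5, 65.7 and 25.7 against 45.1, 90.1, 44.7 and 100.04 CPM, with overlap for both. E12.5 embryos had 76.4 and 55.8 against 49.9 and 54.1 CPM of Slc38a4 in XX and 20.6 and 25.8 against 17.1 and 46.7 CPM in XY. For Gab1 they had 36.6 and 38.1 against 6.43 and 29.2 CPM in XX and 17.7 and 17.2 against 19.3 and 13.8 CPM in XY, so that both genes were lower in the XX ECKO embryos and overlapped in XY. The medians of the 3 genes of this group were −0.05, 0.40 and −0.90 in the bulk comparisons at E11.5 XY, E11.5 XX and E13.5 XY.

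Cd81, a tetraspanin of the cell surface at the distal end of the Kcnq1ot1 cluster, was higher in ECKO in all 5 comparisons and rose by the test at E11.5 XY. Its values there were 32.9, 21, 28 and 26.6 CPM in Control and 54.9, 67.1, 43 and 148 CPM in ECKO. The groups did not overlap, but ECKO 4 had more than 2 times the level of any other library of that sex. The log2 fold change was 1.53 ± 0.33 (SE, edgeR adjusted p = 0.0274), and without ECKO 4 it was 1.02 (edgeR adjusted p = 0.0758). Its call was also lost without Control 2 (1.43, adjusted p = 0.0927), Control 3 (1.54, 0.0653), Control 4 (1.52, 0.0828) or ECKO 2 (1.59, 0.0507), where the size changed little. At E11.5 XX the values were 25, 32.5 and 44.9 CPM in Control and 80.2, 87.1, 78.4 and 164 CPM in ECKO, with every ECKO library higher and a log2 fold change of 1.53 ± 0.35 (SE, edgeR adjusted p = 0.114). E12.5 embryos had 15.5 and 11.7 against 146 and 146 CPM in XX, for 3.42 ± 0.52 (SE, edgeR adjusted p = 0.0800), and 26.9 and 18.5 against 75.1 and 94.6 CPM in XY, for 1.90 ± 0.49 (SE, edgeR adjusted p = 0.575). Both sexes were without overlap, and DESeq2 called Cd81 in each. At E13.5 XY the values of 12.7, 24.7, 0.122 and 41.9 against 46.8, 45.6 and 31.4 CPM overlapped, with 1 Control library near 0, at 1.06 (edgeR adjusted p = 0.548).

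Phlda2, which restrains growth of the placenta and is silenced in that cluster by the Kcnq1ot1 control region, was seen in ECKO cells at E13.5, when Control cells had almost none. At E11.5 XY it stood at 76.5, 140.2, 108 and 154 CPM in Control and 176, 175, 159 and 227 CPM in ECKO, with no overlap, at 0.62 ± 0.20 (SE, edgeR adjusted p = 0.131). In E13.5 XY cells it was at 0, 0, 0 and 0.211 CPM in Control and 0, 18.7 and 20.3 CPM in ECKO. Of the ECKO libraries, 2 were high and 1 was at 0. Summed over libraries this was 440 counts in ECKO against 1 count in Control, a ratio of 595 with a counting interval of 106 to 23560, and the filter kept it out of the test at that stage. Counting intervals, here and below, cover counting error only and not the spread between libraries or embryos. The stage-by-genotype interaction in XY, which asks whether the ECKO difference at E13.5 differs from that at E11.5, was 7.78 ± 1.46 (SE, edgeR adjusted p = 0.0148) on the log2 scale, where 1.2% of all genes were called, and it was called whichever library was left out. E12.5 embryos had 2693 and 2056 against 2249.6 and 1653 CPM in XX, above the XY embryos in both genotypes, and 70.8 and 125 against 401 and 248 CPM in XY, where the ECKO embryos were higher. E11.5 XX libraries had 67.5, 84.6 and 155 against 235, 221, 194 and 98.4 CPM, with overlap, at 0.83 (edgeR adjusted p = 0.304). Kcnq1ot1, the noncoding RNA of the cluster, was called in no comparison: it stood at 189, 223, 173 and 149 CPM in Control and 97.5, 103, 201 and 254 CPM in ECKO at E11.5 XY (log2 fold change −0.16), and at 169.9, 187 and 108 against 106, 87.8, 78.8 and 121 CPM at E11.5 XX (−0.64). At E13.5 XY it was at 198, 152, 599 and 374 against 408, 137 and 128 CPM (−0.56). Groups overlapped each time, and the smallest of these adjusted p values was 0.294. E12.5 embryos had 1.98 and 20.5 against 10.54 and 25.6 CPM in XX and 24.9 and 15.7 against 26 and 48.5 CPM in XY. Reads of Kcnq1ot1 and of Kcnq1, which it overlaps on the other strand, may not have been told apart, as no strand setting is given in the sources used here. Slc22a18, a transporter of the same cluster, stood at 20.2 to 22.5 CPM in Control and 33.6 to 34.4 CPM in ECKO in E12.5 XX embryos and at 5.05 to 7.38 CPM in Control and 11.1 to 12.6 CPM in ECKO in XY embryos, with no overlap and log2 fold changes of 0.67 and 0.93, neither called.

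Plagl1, a zinc finger factor that stands over a network of imprinted growth genes, rose at E11.5 XY with the largest of the 3 changes called there. Its values were 11.2, 3.50, 7.73 and 6.65 CPM in Control and 22.8, 26.7, 13.4 and 77.3 CPM in ECKO. All ECKO libraries were above all Controls, with ECKO 4 far above the rest. The log2 fold change was 2.26 ± 0.51 (SE, edgeR adjusted p = 0.0318), and 1.53 (edgeR adjusted p = 0.14) without ECKO 4. The call was also lost without Control 2 (2.04, adjusted p = 0.0996), Control 3 (2.30, 0.0784), Control 4 (2.23, 0.0987) or ECKO 2 (2.37, 0.0583). At E11.5 XX it stood at 12.49, 16.3 and 3.04 CPM in Control and 27.8, 51.9, 37.3 and 167 CPM in ECKO, also without overlap, at 2.86 ± 0.74 (SE, edgeR adjusted p = 0.123), and 1.96 (edgeR adjusted p = 0.190) without ECKO 4. At E13.5 XY the values of 12.2, 11.8, 20.1 and 29.9 against 22.1, 3.75 and 11.8 CPM were mixed, at −0.56 (edgeR adjusted p = 0.688). E12.5 embryos had 5.53 and 2.46 against 10.8 and 36.7 CPM in XX and 0 and 0.297 against 15.9 and 5.63 CPM in XY, higher in every ECKO embryo.

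Grb10, an adaptor that dampens insulin and growth factor receptor signalling, rose at E13.5 XY. It stood there at 4.94, 10, 52.6 and 27.8 CPM in Control and 405, 92.6 and 157 CPM in ECKO. No ECKO library overlapped a Control library, and ECKO 1 was the highest. The means were 23.8 ± 21.5 CPM (SD, n = 4) in Control and 218 ± 165 CPM (SD, n = 3) in ECKO, and the log2 fold change was 3.20 ± 0.72 (SE, edgeR adjusted p = 0.0292), which was 3.30 (edgeR adjusted p = 0.0827) without Control 4 and 2.36 (edgeR adjusted p = 0.0491) without ECKO 1. The call was lost as well without Control 1 (2.86, adjusted p = 0.0572), Control 2 (2.96, 0.0579), ECKO 2 (3.56, 0.0530) or ECKO 3 (3.38, 0.0679). At E11.5 XY the values were 92.6, 10.51, 33.5 and 23.7 CPM in Control and 145, 116, 64.9 and 400.1 CPM in ECKO, with overlap and a log2 fold change of 2.18 ± 0.55 (SE, edgeR adjusted p = 0.0515), just above the threshold. E11.5 XX libraries had 95, 193 and 26.7 CPM in Control and 289, 137, 192 and 1472 CPM in ECKO, at 2.33 ± 0.80 (SE, edgeR adjusted p = 0.229). Without ECKO 4 the log2 fold changes were 1.45 (edgeR adjusted p = 0.157) in XY and 0.99 (edgeR adjusted p = 0.450) in XX. In E12.5 embryos Grb10 was near 0 in Control and present in all ECKO embryos, with 0.614 and 0.0367 against 11 and 61.8 CPM in XX (6.77 ± 1.91 SE, edgeR adjusted p = 0.208) and 0 and 0.198 against 38 and 3.02 CPM in XY (7.49 ± 2.03 SE, edgeR adjusted p = 0.586).

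**Figure D2:**
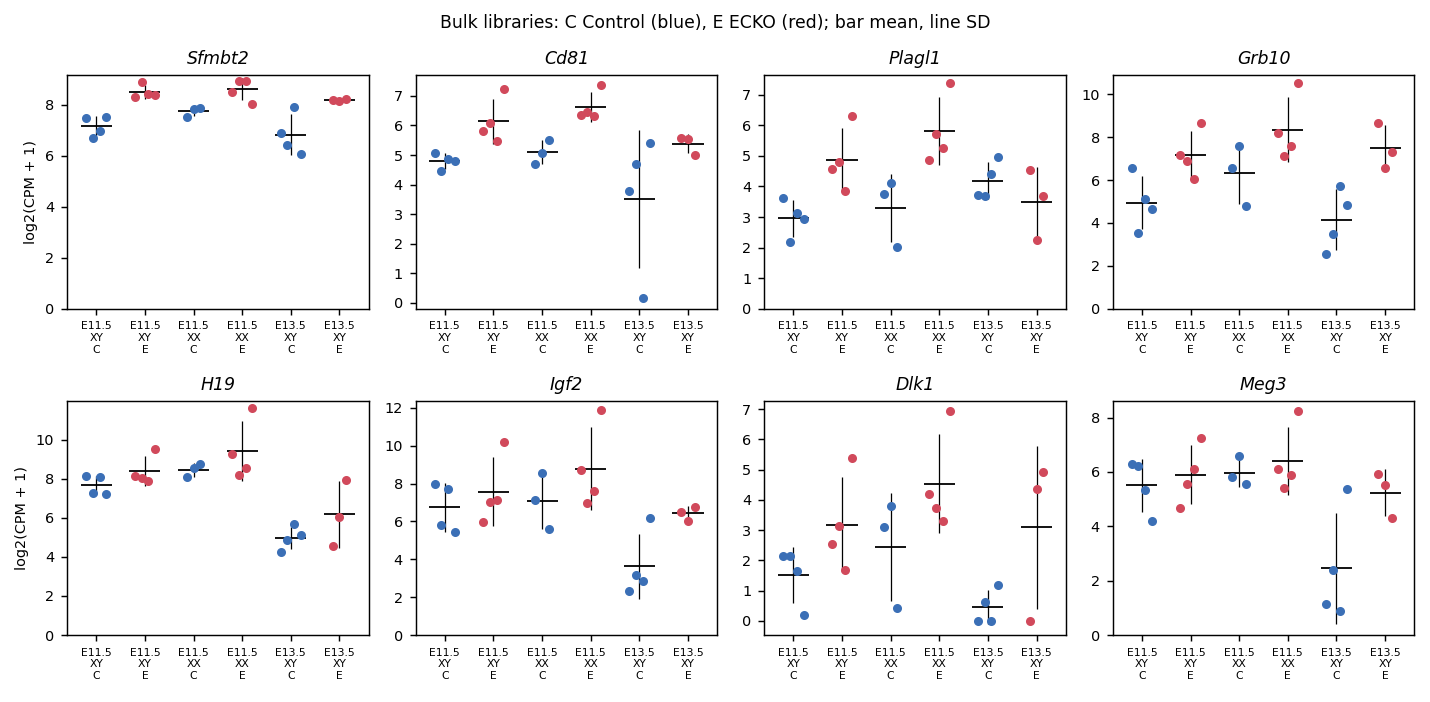
Level as log2(CPM + 1) of Sfmbt2, Cd81, Plagl1, Grb10, H19, Igf2, Dlk1 and Meg3 in the 6 bulk groups, with 1 point per library, a bar at the mean and a line for the SD. Sfmbt2, Cd81 and Plagl1 have ECKO points above all Control points at E11.5 in both sexes, while for H19, Igf2, Dlk1 and Meg3 the highest E11.5 point in each sex is ECKO 4.

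Igf2, the fetal growth factor, and H19, the noncoding RNA that shares its control region and is expressed from the other parental copy, were above Control by their fitted values in each bulk comparison, and neither was called. At E11.5 XY H19 stood at 276.7, 155, 267 and 146 CPM in Control and 283, 259, 238 and 740.5 CPM in ECKO, and Igf2 at 252, 54.7, 212 and 42 CPM in Control and 61.3, 128, 138 and 1164 CPM in ECKO. The groups overlapped for both genes, and ECKO 4 was the highest library for both. The log2 fold changes were 0.85 ± 0.31 (SE, edgeR adjusted p = 0.185) for H19 and 1.41 ± 0.72 (SE, edgeR adjusted p = 0.354) for Igf2. Leaving out ECKO 4 gave 0.30 (edgeR adjusted p = 0.569) for H19 and −0.36 (edgeR adjusted p = 0.802) for Igf2, on the other side of 0. In E11.5 XX cells H19 was at 269.9, 372 and 429 CPM in Control and 611, 291, 373 and 3153 CPM in ECKO and Igf2 at 137, 373 and 47.6 CPM in Control and 415, 123, 196 and 3734 CPM in ECKO. There the fitted changes of 1.62 (edgeR adjusted p = 0.304) and 2.58 (edgeR adjusted p = 0.301) became 0.25 (edgeR adjusted p = 0.767) and 0.40 (edgeR adjusted p = 0.828) without ECKO 4. At E13.5 XY H19 was at 18.3, 28.5, 49.5 and 33.3 CPM in Control and 22.2, 64.9 and 245 CPM in ECKO (1.77 ± 0.64 SE, edgeR adjusted p = 0.129), called by DESeq2 alone. Igf2 was at 4.03, 7.96, 6.10 and 71 CPM in Control and 89.7, 63.4 and 108 CPM in ECKO (1.98 ± 0.83 SE, edgeR adjusted p = 0.183), where Control 4 alone reached the ECKO range and the value without it was 3.86 (edgeR adjusted p = 0.0186). E12.5 embryos had 34.9 and 78.7 against 61 and 267 CPM of H19 in XX and 41.9 and 21.6 against 62.9 and 87 CPM in XY. They had 1.57 and 0.0735 against 1.72 and 131 CPM of Igf2 in XX and 0 and 0.297 against 13.7 and 16.7 CPM in XY, with all ECKO embryos higher and Controls at 1.57 CPM or less. Igf2r, the receptor that clears IGF2 and is expressed from the maternal copy, stood at 224, 272, 241 and 272 CPM in Control and 304, 282, 267 and 384 CPM in ECKO at E11.5 XY and 232, 176 and 348 CPM in Control and 313, 302, 241 and 696 CPM in ECKO at E11.5 XX, with overlap at 0.29 (edgeR adjusted p = 0.348) and 0.61 (edgeR adjusted p = 0.456), and at 0.17 and 0.18 without ECKO 4. At E13.5 XY it was lower in every ECKO library, at 226, 209, 197 and 205 CPM in Control and 176, 129.9 and 109 CPM in ECKO (−0.59 ± 0.30 SE, edgeR adjusted p = 0.253). E12.5 embryos had 23.7 and 63.1 against 37.8 and 47.4 CPM in XX and 32.5 and 29.8 against 45.2 and 98.2 CPM in XY.

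**Figure D3:**
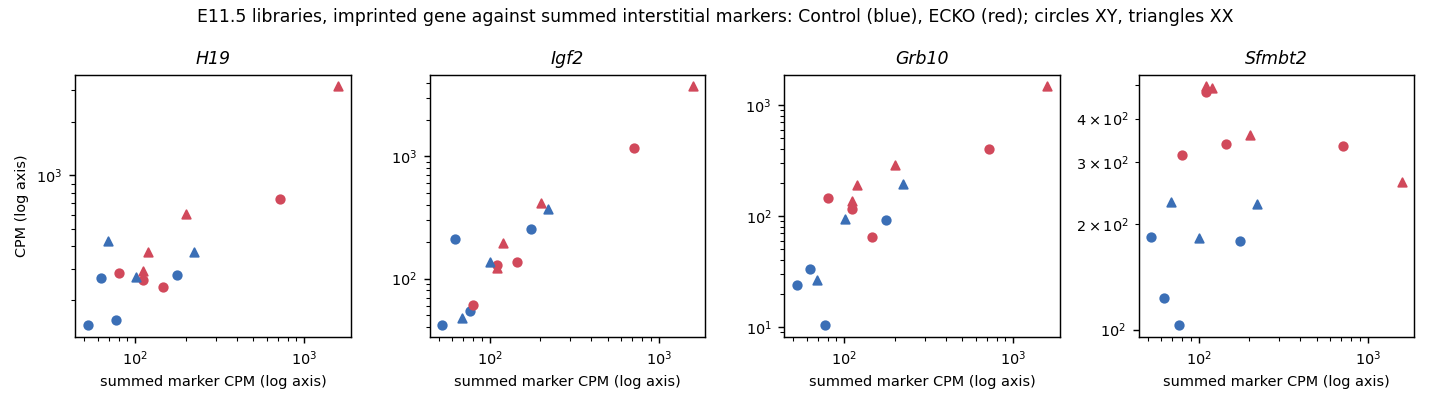
H19, Igf2, Grb10 and Sfmbt2 (CPM, y axis) against the summed level of 15 interstitial and mesenchymal markers (CPM over total counts, x axis) in the 15 E11.5 libraries, both axes logarithmic, with circles for XY and triangles for XX. The 2 ECKO 4 libraries lie at the right, at 718 and 1594 CPM of markers, and are the highest points for H19, Igf2 and Grb10, but not for Sfmbt2, where XY ECKO 4 has 333 CPM and XX ECKO 4, at 264 CPM, is the lowest ECKO library.

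In the Dlk1-Dio3 cluster, which pairs the paternally expressed Notch-related ligand Dlk1 with the maternally expressed noncoding RNAs Meg3, Rian and Mirg, Rian rose at E13.5. By fitted values all 4 genes tested were higher in each bulk comparison, but without the ECKO 4 libraries only 2 of 4 were at E11.5 XY and 1 of 3 at E11.5 XX. Rian, which holds small nucleolar RNAs, stood at 2.92, 2.87, 0.488 and 6.95 CPM in Control and 99.6, 27.5 and 28.9 CPM in ECKO in E13.5 XY cells. The groups were far apart, with means of 3.31 ± 2.68 CPM (SD, n = 4) in Control and 52 ± 41.3 CPM (SD, n = 3) in ECKO, and the log2 difference was 3.996 ± 0.81 (SE, edgeR adjusted p = 0.0196). The call was lost without Control 1 (3.94, adjusted p = 0.0615) or ECKO 2 (4.29, 0.0512). At E11.5 it was at 26.2, 15.8, 14.9 and 8.75 against 18.6, 16.3, 7.02 and 47.2 CPM in XY (0.44, edgeR adjusted p = 0.729) and 12.49, 44.7 and 5.74 against 23.6, 19.1, 11 and 106 CPM in XX (0.91, edgeR adjusted p = 0.666), with overlap, and on the other side of 0 without ECKO 4, at −0.22 and −0.25. Meg3 had 1.21, 4.30, 0.854 and 40.2 CPM in Control and 60, 44.4 and 18.5 CPM in ECKO at E13.5 XY (1.83, edgeR adjusted p = 0.330). Control 4 alone lay within the ECKO range, and without it the value was 4.24 (edgeR adjusted p = 0.0519). At E11.5 Meg3 stood at 78.1, 72.9, 39.4 and 17.3 against 24.6, 45.7, 67.4 and 152 CPM in XY (0.48) and 55, 94.1 and 45.6 against 68, 41.2, 57.5 and 297.8 CPM in XX (0.84), with ECKO 4 the highest each time, and at −0.17 and −0.22 without it. Dlk1 was at 0, 0.557, 0 and 1.26 CPM in Control and 0, 19.4 and 29.2 CPM in ECKO at E13.5 XY (5.22 ± 1.74 SE, edgeR adjusted p = 0.102), high in 2 ECKO libraries and at 0 in the other one. At E11.5 it was at 3.42, 3.39, 2.13 and 0.136 against 4.82, 7.72, 2.24 and 40.6 CPM in XY (2.61, edgeR adjusted p = 0.171) and 7.50, 12.9 and 0.338 against 17.4, 12.2, 8.87 and 120.1 CPM in XX (2.64, edgeR adjusted p = 0.308), and without ECKO 4 these became 1.13 (edgeR adjusted p = 0.672) and 0.97 (edgeR adjusted p = 0.750). In E12.5 embryos Dlk1 was at 0 and 0.294 against 30.2 and 23.9 CPM in XX (7.48 ± 1.99 SE, edgeR adjusted p = 0.186) and 0.516 and 0 against 17.5 and 23.5 CPM in XY (6.35 ± 1.91 SE, edgeR adjusted p = 0.631). All ECKO embryos were above all Controls. E12.5 Meg3 stood at 2.76 and 17.4 against 0.561 and 40.6 CPM in XX and 2.21 and 1.19 against 2.45 and 15.7 CPM in XY. Rian had 0 counts in all 4 Control embryos and 3 and 13 counts in the XX ECKO embryos, at least 7.48-fold higher when 0 is replaced by a floor of 3 counts over the group. The XY ECKO embryos had 0 and 140 counts, at least 36.3-fold higher. The XY bound rests on embryo B, where 1 of 18 cells had Rian at 10 CPM or more. Dio3, the deiodinase that inactivates thyroid hormone, was likewise at 0 in the Control embryos, with 46 and 4 counts in the XX ECKO embryos (at least 23.4-fold higher) and 16 and 326 in the XY ECKO embryos (at least 88.7-fold higher). Most of these came from 1 embryo of each sex, XX embryo A and XY embryo B. There 1 of 13 and 4 of 18 cells had Dio3 at 10 CPM or more.

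Peg10, a gene derived from a retrotransposon and needed by the placenta, rose at E13.5 XY. It stood at 3.63, 5.17, 1.59 and 19 CPM in Control and 54.6, 107 and 175 CPM in ECKO. The lowest ECKO library had more than 2 times the highest Control library. The means were 7.34 ± 7.88 CPM (SD, n = 4) in Control and 112 ± 60.3 CPM (SD, n = 3) in ECKO, and the log2 fold change was 3.96 ± 0.74 (SE, edgeR adjusted p = 0.0149). Without ECKO 2 (3.98, adjusted p = 0.0536) or ECKO 3 (3.48, 0.0683) it was not called. E11.5 values were 174, 122, 211 and 69.2 against 190.2, 111, 137 and 207 CPM in XY (0.16, edgeR adjusted p = 0.830) and 87.5, 219 and 43.3 against 121, 64.2, 83.4 and 569 CPM in XX (0.84, edgeR adjusted p = 0.642), with overlap, and the XX value was −0.37 without ECKO 4. The stage-by-genotype interaction was 3.89 ± 0.76 (SE, edgeR adjusted p = 0.0198), lost without E11.5 ECKO 3 (3.82, adjusted p = 0.0561) or E13.5 ECKO 3 (3.40, 0.0522). At E12.5 Peg10 had 0 counts in all 4 Control embryos and 6 and 108 counts in the 2 XX ECKO embryos, at least 53.3-fold higher over both. It had 3 and 11 counts in the 2 XY ECKO embryos, at least 3.63-fold higher. Most of the XX counts came from embryo B, where 1 of 13 cells had Peg10 at 10 CPM or more. In XY ECKO 0 cells reached that level. Beside these E13.5 results, germ cell markers summed to 4089 to 4972 CPM in Control and 2584 to 3739 CPM in ECKO at that stage. Interstitial markers summed to 25.5 to 76.7 against 35.7 to 97.4 CPM, and endothelial markers to 150 to 221 against 27.3 to 77.4 CPM. Supporting cell markers summed to 11.4 to 215 against 23.5 to 44.8 CPM. The part of these markers was not tested. Sgce, the partner of Peg10 and a sarcoglycan transcribed from the shared promoter region, had 0 counts in the E12.5 Control embryos, 121 and 261 counts in XX and 28 and 40 counts in XY ECKO embryos, at least 178.6-fold and at least 17.6-fold higher. These bounds rest on few cells: 2 and 3 of 13 in the XX ECKO embryos A and B had Sgce at 10 CPM or more. In each XY ECKO embryo 1 of 18 cells did.

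Peg3, a paternally expressed zinc finger protein of mesenchyme and maternal brain, was the 1 member that fell. At E13.5 XY it stood at 999.8, 956, 1566 and 767 CPM in Control and 443, 167 and 117 CPM in ECKO. Every ECKO library was below every Control library, with means of 1072 ± 344 CPM (SD, n = 4) in Control and 242 ± 176 CPM (SD, n = 3) in ECKO, and the log2 difference was −2.15 ± 0.48 (SE, edgeR adjusted p = 0.0285). Without ECKO 1 it was −2.96 (edgeR adjusted p = 0.00204), and without Control 4 −2.28 (edgeR adjusted p = 0.0595). The call was also lost without Control 1 (−2.18, adjusted p = 0.0616), ECKO 2 (−1.95, 0.120) or ECKO 3 (−1.82, 0.100). At E11.5 it was at 601, 541, 727 and 686 against 455, 445, 516 and 894 CPM in XY (−0.15, edgeR adjusted p = 0.779) and 559.8, 656 and 619 against 579, 469, 521 and 1575 CPM in XX (0.36, edgeR adjusted p = 0.703), and the 3 XY ECKO libraries other than ECKO 4 lay below every Control. Without ECKO 4 the values were −0.43 and −0.22. The stage-by-genotype interaction was −2.01 ± 0.48 (SE, edgeR adjusted p = 0.0459), which kept its sign but passed the threshold in only 1 of the leave-outs, that of E13.5 ECKO 1, with adjusted p values of up to 0.112. E12.5 embryos were lower in ECKO in both sexes, with 52.8 and 84.3 against 22.6 and 43.9 CPM in XX (−1.04, edgeR adjusted p = 0.447) and 127 and 101 against 24.4 and 29.5 CPM in XY (−2.08 ± 0.55 SE, edgeR adjusted p = 0.586), and DESeq2 called the XY difference. Usp29, a deubiquitinase read from the same start region on the other strand, stood at 29.6, 22, 9.15 and 8.63 against 1.66, 6.52 and 3.96 CPM at E13.5 XY (−2.10 ± 0.83 SE, edgeR adjusted p = 0.161), without overlap. Its reads may not be separable from those of Peg3 near the shared start.

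**Figure D4:**
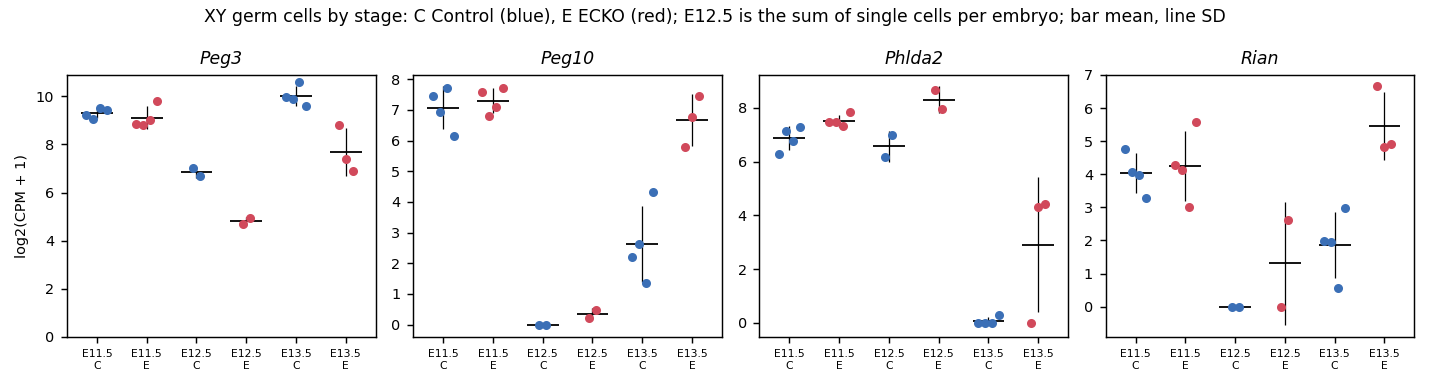
Level as log2(CPM + 1) of Peg3, Peg10, Phlda2 and Rian in XY cells at E11.5, E12.5 (summed single cells) and E13.5, with 1 point per library or embryo for Control (blue) and ECKO (red), a bar at the mean and a line for the SD. Peg3 points of ECKO lie below Control at E12.5 and E13.5, while Peg10, Phlda2 and Rian points are low in Control at E13.5 and higher in ECKO, apart from 1 ECKO library with 0 CPM of Phlda2. E12.5 came from another kind of library and was scaled apart, so heights across the stages are not compared.

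In the Snrpn-Ube3a cluster the median log2 fold changes were 0.06 at E11.5 XY, −0.65 at E11.5 XX, −0.53 at E13.5 XY, −1.21 at E12.5 XX and −0.59 at E12.5 XY, over 4 or 5 genes tested. Ube3a, the ubiquitin ligase expressed from the maternal copy in neurons and from both copies in most cells, was lower in ECKO by its fitted value in all 5 comparisons. At E11.5 XY it stood at 89.6, 69, 85.7 and 90.4 CPM in Control and 50.2, 63.5, 46.4 and 46 CPM in ECKO, with no overlap. The log2 fold change was −0.70 ± 0.20 (SE, edgeR adjusted p = 0.0859), and DESeq2 called it. The others were −1.13 at E11.5 XX, −1.04 at E13.5 XY, −0.27 at E12.5 XX and −0.98 at E12.5 XY, none called. Ndn, a MAGE-family protein of neurons, was higher in every ECKO library at E11.5 XX (4.06 to 17.2 CPM in Control and 23.6 to 61.5 CPM in ECKO, 1.82, edgeR adjusted p = 0.205). Magel2, Mkrn3 and Peg12 had at most 23.7 CPM in any library. Snrpn was at or near 0 in all libraries, with a highest value of 1.05 CPM, so nothing can be said of it here. Snurf, which shares its transcript, reached at most 0.211 CPM.

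Among the members outside these clusters, Nnat, a small membrane protein of developing brain, stood at E11.5 XY at 58.4, 7.34, 4.90 and 5.63 CPM in Control and 7.79, 13.3, 25 and 632 CPM in ECKO, with ECKO 4 more than 10 times as high as any other library. The fitted value of 3.16 (edgeR adjusted p = 0.171) became −0.31 (edgeR adjusted p = 0.906) without it. At E13.5 XY it stood at 0.908, 1.27, 0 and 1.26 CPM in Control and 4.87, 15.1 and 11.4 CPM in ECKO, without overlap, at 3.59 ± 1.21 (SE, edgeR adjusted p = 0.104). In E12.5 embryos it had 1 count in XX Control against 115 and 688 counts in ECKO, a ratio of 1126 with a counting interval of 202 to 44528, and 0 against 23 and 17 counts in XY, at least 10.4-fold higher. The XX ECKO embryos were themselves apart, at 4.30 and 41.4 CPM, and that interval leaves this spread out. Mest, a hydrolase of mesoderm, was at 106, 7.34, 23.8 and 11.9 CPM in Control and 31.8, 23.5, 62.4 and 211 CPM in ECKO at E11.5 XY and 7.50, 54.2 and 13.2 CPM in Control and 44, 16.8, 24.5 and 353 CPM in ECKO at E11.5 XX. These overlapped, with ECKO 4 the highest, at 1.14 (edgeR adjusted p = 0.460) and 2.04 (edgeR adjusted p = 0.363), and without it the values were 0.08 and 0.14. At E13.5 XY Mest stood at 123, 207, 135 and 137 against 185, 116 and 105 CPM (−0.15), and in E12.5 embryos at 11.2 and 10.2 against 27.2 and 193 CPM in XX (3.36, edgeR adjusted p = 0.200) and 8.56 and 10.4 against 16.8 and 5.96 CPM in XY. Gnas, the stimulatory G protein subunit, was at 125, 75.2, 77.6 and 50.3 CPM in Control and 111, 122, 130.2 and 353 CPM in ECKO at E11.5 XY (1.13 ± 0.34 SE, edgeR adjusted p = 0.0936) and 112, 170.0 and 92.9 CPM in Control and 274, 90.9, 118 and 784 CPM in ECKO at E11.5 XX (1.34, edgeR adjusted p = 0.338). Without ECKO 4 the log2 fold changes were 0.57 and 0.38. At E13.5 XY it was at 62.6, 105, 118 and 139 against 182, 58.2 and 34.1 CPM (−0.21). E12.5 embryos had 98.7 and 74 against 188 and 160.4 CPM of Gnas in XX and 69.5 and 32.4 against 85.5 and 93.4 CPM in XY, higher in all ECKO embryos. Copg2, Zrsr1, Mcts2, H13, Impact, Inpp5f, Commd1 and Ppp1r9a were tested in all 5 comparisons of ECKO with Control without a call, and their log2 fold changes at E11.5 XY ran from −0.48 (Ppp1r9a) to 0.32 (H13). Zrsr1 lies in an intron of Commd1, and Mcts2 in an intron of H13, so reads of these pairs may have been shared. Nap1l5 was opposite at E12.5, with 127 and 71 counts in the XX Control embryos and 0 in ECKO, at least 47.1-fold lower. In each of these Control embryos 1 cell had it at 10 CPM or more.

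The remaining members were low. Zim1, a zinc finger gene beside Peg3, was at 0 in the E12.5 Control embryos, with 15 and 53 counts in the XX ECKO embryos (at least 31.8-fold higher) and 0 and 406 in the XY ECKO embryos (at least 105-fold higher). All the XY counts came from embryo B, where 1 of 18 cells had it at 10 CPM or more. Its E11.5 values of 0.709 to 3.13 CPM in Control and 0.723 to 18.6 CPM in ECKO in XY and 8.13 to 19.9 CPM in Control and 0 to 45.4 CPM in ECKO in XX overlapped. Asb4, a ubiquitin ligase adaptor beside Peg10, stood at 9.12 to 12.49 CPM in Control and 18.3 to 116 CPM in ECKO at E11.5 XX (2.06, edgeR adjusted p = 0.229) and at 4.08 to 5.90 CPM in Control and 12.6 to 111 CPM in ECKO in E12.5 XX embryos (3.63, edgeR adjusted p = 0.256), with no overlap in either, and DESeq2 called the E12.5 difference. Without ECKO 4 the E11.5 XX value was 0.90. At E13.5 XY Asb4 had 59.7, 41.7, 8.05 and 57.7 CPM in Control and 20.8, 11.46 and 7.36 CPM in ECKO. These overlapped, with the fitted value on the other side of 0 at −1.66 (edgeR adjusted p = 0.176), and edgeR called it lower when Control 3 was left out. Mirg, at the far end of the Dlk1-Dio3 cluster, had 0 counts in the XY Control embryos and 3 and 142 in the XY ECKO embryos at E12.5, at least 37.6-fold higher, with 1 of 18 cells of embryo B at 10 CPM or more. In XX it had 52 and 0 counts in Control and 0 and 6 in ECKO. Peg13 had 0 and 1 counts in the XX Control embryos against 3 and 211 in ECKO, a ratio of 300.1 with a counting interval of 53.3 to 11907, and 27 and 0 counts in the XY Control embryos against 0 in ECKO, at least 11.6-fold lower. Nearly all its counts came from 1 embryo of each sex, in which 1 cell had 10 CPM or more. Kcnq1, Tspan32, Airn, Klf14 and Rasgrf1 were at or near 0 in most libraries, and the highest value among them was 13.8 CPM of Airn in an E11.5 XX ECKO library.

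Groups without overlap were counted against the same count over all genes. At E11.5 XY 4 of 39 members (Sfmbt2, Cd81, Plagl1 and Phlda2) lay wholly higher in ECKO, where 5.15% of all genes did, and 1 (Ube3a) wholly lower, against 4.65%. At E11.5 XX 5 of 38 (Sfmbt2, Cd81, Plagl1, Ndn and Asb4) were wholly higher, against 7.51%, and 0 lower, against 5.23%. Sfmbt2, Cd81 and Plagl1 were in both sets. The share of all genes apart in both sexes was not counted, so this is no result about the members as a set. At E13.5 XY 7 of 34 were wholly higher, against 12.2%, and 7 wholly lower, against 11.2%. At E12.5 17 of 40 were wholly higher in XX, against 23.3%, and 8 wholly lower, against 17.9%. In XY 18 of 40 were wholly higher, against 20.8%, and 4 wholly lower, against 16%. With 2 embryos a side such separation is common among all genes.

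Leaving out ECKO 4 at E11.5 took much of the lean to higher values with it. Without it 24 of 39 members were higher and 15 lower at E11.5 XY, with a median of 0.17, and 8 members changed sign. At E11.5 XX 23 of 36 tested were higher, with a median of 0.16, and 9 changed sign. Sfmbt2 was the only member called in each sex after that, where 0.961% of all genes were called higher in XY and 0.205% in XX. At E13.5 the counts turned on single libraries as well: 9 members were called without ECKO 1, 6 higher (all genes in the same fit 7.16%) and 3 lower (8.87%), among them Dlk1 (5.79, edgeR adjusted p = 0.0168), H19 (2.22, edgeR adjusted p = 0.0179), Igf2r (−0.84, edgeR adjusted p = 0.0488) and Slc38a4 (−2.09, edgeR adjusted p = 0.0401). Without ECKO 2 edgeR called 0 members, without ECKO 3 only Rian, and without Control 1 only Peg10.

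In single cells at E12.5 a gene was counted as present at 10 CPM or more, here over the cell's total counts. This was done for the 127 of 192 cells with at least 50000 counts and 1500 genes (median 1310080 counts). No doublet caller was run on these sorted plates, and the intervals given cover counting error only. Dlk1 was present in 0 of 14 and 0 of 16 XX Control cells. This allows shares of up to 21.4% and 18.8%, taken as 3 divided by the number of cells and not as an exact interval. Among XX ECKO cells it was present in 9 of 13 (69.2%, exact 95% interval 38.6 to 90.9) and 1 of 13. In XY it was present in 0 of 13 and 0 of 22 Control cells and in 7 of 18 and 7 of 18 ECKO cells (38.9%, 17.3 to 64.3). The share was high in only 1 of the XX ECKO embryos and equal in the 2 XY ECKO embryos. Grb10 was present in 0 of 30 XX Control cells and 6 of 13 cells of each XX ECKO embryo (46.2%, 19.2 to 74.9). In XY it was present in 1 of 35 Control cells and in 12 of 18 and 3 of 18 ECKO cells. Dlk1 or Grb10 was present in 17 of 26 XX and 24 of 36 XY ECKO cells, and both were present in 5 cells of each sex. Most of these cells also carried germ cell markers: of those with Dlk1, 10 of 10 in XX ECKO and 12 of 14 in XY ECKO also had Ddx4 or Dazl, and of the cells with Grb10, 11 of 12 and 13 of 15. Over all ECKO cells 25 of 26 and 30 of 36 had Ddx4 or Dazl. The median number of interstitial markers present was 1 in cells with Dlk1 and 1 in cells without it. When each cell was thinned to 50000 counts, Dlk1 was present in 8 and 1 XX ECKO cells and 3 and 6 XY ECKO cells, and in 0 Control cells.

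Cd81 was present in 2 of 14 and 5 of 16 XX Control cells and in 12 of 13 and 11 of 13 XX ECKO cells. In XY it was present in 7 of 13 and 8 of 22 Control cells and in 14 of 18 cells of each ECKO embryo. Its higher level in the summed embryos went with more cells that had it. Peg3 was present in fewer ECKO cells: in XY it was found in 12 of 13 and 21 of 22 Control cells and in 7 of 18 and 11 of 18 ECKO cells. In XX it was found in 8 of 14 and 13 of 16 Control cells and in 6 of 13 and 3 of 13 ECKO cells. Phlda2 was present in nearly all XX cells of both genotypes (30 of 30 Control and 25 of 26 ECKO), and in XY in 7 of 13 and 9 of 22 Control cells and 16 of 18 and 18 of 18 ECKO cells. Sfmbt2 was present in 1 of 13 and 8 of 22 XY Control cells and in 12 of 18 cells of each XY ECKO embryo, while in XX it was present in 5 of 14 and 2 of 16 Control and 5 of 13 and 4 of 13 ECKO cells. H19 and Igf2 were found together in 0 Control cells, in 1 and 5 cells of the XX ECKO embryos and in 3 and 5 cells of the XY ECKO embryos. Igf2 by itself was present in 1 and 1 XX Control cells and in 0 and 1 XY Control cells. In ECKO it was present in 1 and 6 XX cells and in 3 and 8 XY cells. With so few Control cells that had Igf2, the 0 shared cells there cannot show whether the genes exclude each other. Plagl1 was present in 0 of 35 XY Control cells and 3 of 18 cells of each XY ECKO embryo. The median number of members present per cell was 10 and 13 in the XX Control embryos against 16 and 15 in XX ECKO, and 11 and 11 against 13 and 14 in XY. Summed germ cell markers were lower in ECKO, at 6048 to 6741 CPM in XX Control against 1749 to 2734 CPM in XX ECKO, and at 6011 to 8007 CPM in XY Control against 3826 to 5056 CPM in XY ECKO. Interstitial markers summed to 183 and 106 CPM in the XX Control embryos and 154 and 480 CPM in XX ECKO, and to 26.5 and 63.7 against 37.2 and 104.1 CPM in XY. The part of these markers in the members' values was not tested.

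**Figure D5:**
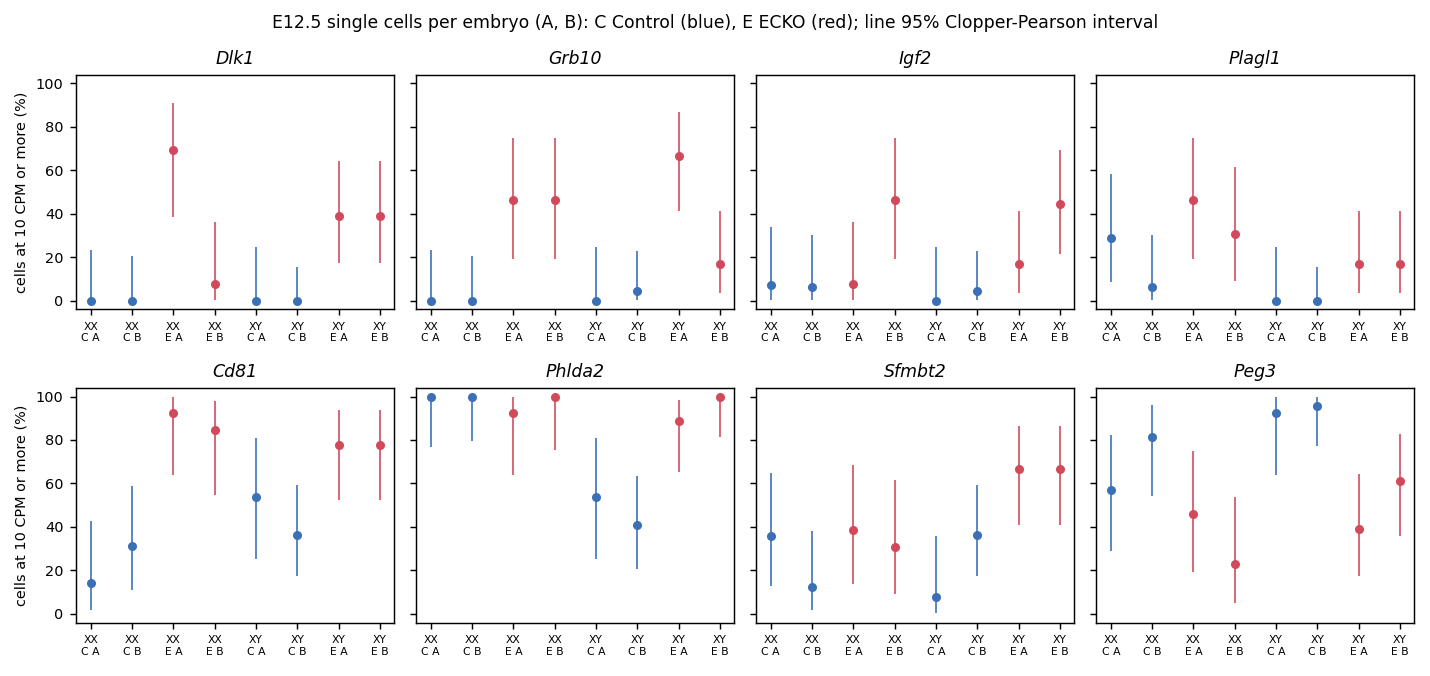
Percent of E12.5 cells with at least 10 CPM of Dlk1, Grb10, Igf2, Plagl1, Cd81, Phlda2, Sfmbt2 and Peg3, with 1 point per embryo and exact 95% intervals over its 13 to 22 cells. Dlk1 is at 0% in all 4 Control embryos and at 7.69% to 69.2% in ECKO; Peg3 is the gene with lower ECKO points in both sexes.

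The members were also followed across stage and sex in Control cells, to show the setting in which the ECKO differences stood. Between E11.5 and E13.5 in XY Control cells 15 of the 43 members tested were called, 6 higher at E13.5 (all genes 15.8%) and 9 lower (15.7%). Higher were Asb4, Copg2, Gab1, Inpp5f, Mest and Peg3, the last with a log2 change of 0.88 (edgeR adjusted p = 0.0427) that was no longer called without any of E11.5 Control 1 to 4, E13.5 Control 1 to 3 or E11.5 ECKO 3 (adjusted p up to 0.148). Lower were Commd1 (−3.35, edgeR adjusted p = 6.99e-05), Peg10 (−4.24, edgeR adjusted p = 1.45e-05), Igf2 (−2.60, edgeR adjusted p = 0.0301), H19 (−2.58, edgeR adjusted p = 0.00108), Nnat, Rian, Slc22a18, Magel2 and Phlda2. Asb4, Gab1, Igf2, Mest, Nnat and Rian also lost this call without 1 or more of the Control libraries, with adjusted p values of at most 0.0970. Phlda2 went from 5975 counts over the E11.5 libraries to 1 at E13.5, a ratio of 4502 with a counting interval of 808 to 177860. Stages came in separate count tables, and stage and table cannot be told apart. Peg10, Rian and Phlda2, which Control cells had at lower levels at E13.5, were among those with higher ECKO values there, and Peg3, higher in Control cells at E13.5, was lower in ECKO. The interactions above share the Control libraries with this stage comparison, so the pattern is not independent of it. At E11.5 the Control sexes differed in 0 of 43 members by the adjusted test (all genes 0.296%) and in 4 by unadjusted p (all genes 10.4%). The sex-by-genotype interaction was called for 0 of 43 members (all genes 0%), and 2 had an unadjusted p under 0.05 (all genes 5.27%), so no difference in response between XX and XY was detected at E11.5.

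Other imprinted genes and neighbours of the same clusters, a list of 47 genes outside the members, gave few calls. At E11.5 XY 31 were tested, Cdkn1c rose (2.80, edgeR adjusted p = 0.0132) and Atp10a fell (−0.72, adjusted p = 0.0414), with a median of 0.07, where 1.51% of all genes were called higher and 0.616% lower. At E13.5 XY 32 were tested, Cdkn1c rose (2.68, edgeR adjusted p = 0.0470), and Pdk4 (−7.73, adjusted p = 0.0313) and Jade1 (−1.69, adjusted p = 0.0403) fell, against 2.99% and 1.9% of all genes. At E11.5 XX (28 tested) and in both sexes at E12.5 (35 tested) edgeR called 0. Among 28 factors that protect, erase or set imprints, 25 were tested at E11.5 XY and 6 were called, 3 in each direction, against the same shares of all genes. Eed, the deleted gene, is among those called here and at E13.5 and had to fall. The lists were chosen with earlier results of these data known, so these counts are no test of such factors as a class. Uhrf1 (1.38, edgeR adjusted p = 0.0261), which brings the maintenance methyltransferase to DNA, the de novo methyltransferase Dnmt3b (2.50, adjusted p = 0.0452) and the H3K4 demethylase Kdm1b (1.59, adjusted p = 0.0482) rose. Eed itself, the 5-methylcytosine oxidase Tet1 (−0.68, edgeR adjusted p = 0.0318) and Trim28 (−0.54, adjusted p = 0.0446), the cofactor of ZFP57, fell. At E13.5 XY, with 27 tested, Dnmt3b (3.45, edgeR adjusted p = 0.0149), Tet3 (4.52, adjusted p = 0.0170) and Dnmt3a (1.64, adjusted p = 0.0239) rose, and Eed and Arid4a (−2.12, adjusted p = 0.0196) fell, against 2.99% and 1.9% of all genes.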

How the data were processed

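The authors deposited raw read counts per gene for 22 bulk libraries in 3 tables and for 192 Smart-seq2 cells in 2 tables, with HISAT2, edgeR and build mm9 named per the submitters' processing notes. Which program counted the reads, with which annotation and strand setting, is not stated in those notes. Bulk cDNA was made with the Ovation RNA-seq kit of NuGEN, per the labels' protocols. Methylation libraries of the series are not analysed here. The members and gene lists were chosen with earlier results of these data known. For each comparison the bulk counts, or the counts of kept cells summed per embryo, were filtered with filterByExpr, scaled by TMM and tested with edgeR 4.0.16 (R 4.3.3) quasi-likelihood fits, with Benjamini-Hochberg adjustment over all genes and a threshold of 0.05; all 8 E12.5 embryos shared 1 fit. The E12.5 columns tie cells to embryos A and B of a group, which serve as names only. The standard error was the log2 fold change divided by the square root of the F statistic. CPM of single genes in libraries and embryos used TMM-scaled library sizes. Marker sums and the limit of 10 CPM in single cells used total counts. The 65 dropped cells held 1717 counts at the median, and 0 cell names were shared between groups. Alternatives were DESeq2 1.42.0, its size factors, total counts, no filter, a replicate block, stricter cell limits and leaving out each library. All 47 members were followed: those called in a comparison of ECKO with Control or an interaction, and a set of well-known ones, are given by library, the others by range or count. The edgeR fit was tested on simulated counts, and the other steps were not. Replicates differed beyond sampling noise, so none was counted as a duplicate.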

Additional observations from a re-analysis of the deposited data

Results flagged for a closer look

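Among 73 groups of 4 libraries or more, 23 held 1 library far from the others by Dixon's test at the 95% level, of which 16 were in an ECKO 4 library. The test used CPM without logarithms, and the groups share libraries, so its nominal rate of about 1 in 20 groups does not hold here. Groups at 0 in all libraries but 1, as for Phlda2 and Snrpn, are flagged by construction. At E11.5 XX, ECKO 4 stood far above the other 3 ECKO libraries for H19 (3153 CPM), Igf2 (3734 CPM), Cd81 (164 CPM), Igf2r (696 CPM), Peg3 (1575 CPM), Peg10 (569 CPM), Grb10 (1472 CPM), Dlk1 (120.1 CPM), Meg3 (297.8 CPM), Rian (106 CPM) and Mest (353 CPM). At E11.5 XY, ECKO 4 did so for H19 (740.5 CPM), Igf2 (1164 CPM), Peg3 (894 CPM), Dlk1 (40.6 CPM) and Gnas (353 CPM). Sfmbt2 is not in either set: there the library apart was XY ECKO 2 (476 CPM). Control libraries apart were E11.5 XY Control 1 for Mest (106 CPM) and Control 2 for Snrpn (0.339 CPM). At E13.5 XY they were Control 4 for Igf2 (71.0 CPM), Meg3 (40.2 CPM) and Phlda2 (0.211 CPM, 1 count) and Control 2 for Mest (207 CPM). The ECKO difference changed between E11.5 and E13.5 in XY cells, by the stage-by-genotype interaction in edgeR, for Phlda2 (log2 7.78), Peg10 (log2 3.89) and Peg3 (log2 −2.01). Why these libraries stand apart was not tested.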

How the results depend on the processing

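Single members kept their direction wherever they were called: over 1532 alternatives for 107 results on single members, 72 lost and 72 gained the threshold, 0 called values changed sign, and 35 values that were not called did. The number of members called depended on the settings. At E11.5 XY it was 3, and became 7 with DESeq2, 7 with no filter on low counts and 1 to 7 with 1 library left out. At E11.5 XX the 0 became 3 with DESeq2, 6 with no filter and 0 to 1 with 1 library left out. At E13.5 XY the 4 became 8 with DESeq2, 9 with no filter and 0 to 9 with 1 library left out. At E12.5 XX the 0 became 8 with DESeq2, 7 with no filter and 0 to 5 with 1 embryo left out, and at E12.5 XY 7, 3 and 0 to 1. The stage-by-genotype interaction was called for 3 members, 5 with DESeq2 and 1 to 7 with 1 library left out. Counts over all genes moved too: from 266 at E11.5 XY to 759 with DESeq2, 457 with no filter and 64 to 333 with 1 library left out, and from 604 at E13.5 XY to 1696, 1268 and 94 to 2141. In the other comparisons they moved from 19 to 315 with DESeq2 and 217 with no filter at E11.5 XX, from 3 to 917 and 566 at E12.5 XX and from 1 to 326 and 150 at E12.5 XY. Where only 1 embryo of a group remained, its spread was taken from the other groups. Scaling by total counts moved the median of all genes to 0.28 at E13.5 XY, 0.24 at E12.5 XX and 0.21 at E12.5 XY.

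No pairing by replicate number was detected: correlations of same-numbered libraries' deviations ran from −0.146 to 0.169 over 10 pairs. Weak correlations cannot show that such libraries shared no litter or day, and the labels do not say. With the replicate block 2 members were called at E11.5 XY (Grb10 and Sfmbt2), 1 at E11.5 XX (Sfmbt2) and 2 at E13.5 XY (Igf2 and Peg10), and 151, 35 and 26 genes in all. The latter fits also dropped the library with no partner, XX ECKO 4 and E13.5 Control 4, and leaving out that library alone called 1 (Sfmbt2) and 3 members (Igf2, Peg10 and Rian), and 26 and 94 genes. Not run were a block by embryo number at E12.5, because the columns carry no embryo numbers, and leaving out a cell with contradictory labels, which cannot be tied to a column; cell 24 of XX ECKO embryo A or B was left out instead, chosen after seeing the data, and edgeR called 0 members either way, with 4 and 3 genes called in XX. Total counts were lowest in E11.5 XX libraries, and whether depth limits the calls there was not tested. The causes of these differences were not tested.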
